A study of Rattus norvegicus with 12 samples.

Results

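The genes described here encode the classical axon guidance ligands and receptors of the rat: semaphorins with their plexin and neuropilin receptors, ephrins with the Eph receptors, Slits with the Robo receptors, and netrins with Dcc and the Unc5 receptors. They were chosen by gene symbol alone, as every measured gene whose symbol starts with Sema, Plxn, Efna, Efnb, Epha, Ephb, Robo, Unc5 or Ntn, or is Nrp1, Nrp2, Slit1, Slit2, Slit3 or Dcc. This rule found 42 of the 9962 genes measured, and no expression value entered it. Of the 73 protein-coding rat genes in RefSeq whose symbols meet the rule, the other 31 are not analysed here, among them Slit2, Sema3f, Sema7a, Plxna2, Plxna4, Ephb2, Efnb2, Efnb3, Unc5c and Robo3.

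The tissue was whole hippocampus from adult male rats of 2 selectively bred lines, bred High Responder (bHR) and bred Low Responder (bLR), which are selected for a high or a low locomotor response to an unfamiliar environment. All rats were of generation 4 of the breeding, were adult (postnatal days P102-107), and differed by line only, with no drug or other treatment in their labels. RNA of each rat was hybridised to 1 short-oligonucleotide array, and 5 arrays per line are compared here: bHR replicates 2 to 6 and bLR replicates 1, 2, 3, 4 and 6. The locomotor score, counted in beam breaks, ran from 1178 to 1328 in these bHR rats and from 319 to 557 in these bLR rats.

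Guidance ligands are read by receptors on the growth cone of an axon, where semaphorins, ephrins and Slits mostly repel and netrins attract through Dcc or repel through Unc5 receptors. In the adult hippocampus many of the same proteins remain on dendrites, spines and glia, where they take part in shaping synapses, adding newborn granule cells and keeping mossy fibres in their layer. Semaphorins act through plexins, with a neuropilin as the binding partner for most secreted forms, whereas ephrins are themselves bound to the membrane and can signal back into the cell that carries them.

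The 42 genes fell into 6 groups by role. There were 11 semaphorins, 8 plexins and neuropilins, 3 ephrins, 8 Eph receptors, 4 genes of the Slit and Robo families, and 8 genes of the netrin group. Among the last, Unc50 encodes a Golgi membrane protein and Unc5cl an intracellular relative of the Unc5 proteins, and neither is a netrin receptor although both meet the name rule. They were kept, and counts without them are given where they matter.

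The arrays were first checked against the tissue label. Of 8 markers of hippocampal neurons 6 were measured, and their mean log2 level lay between 7.22 and 7.37 in bHR and between 7.20 and 7.40 in bLR. Markers of choroid plexus, a tissue next to the hippocampus, ran from 5.52 to 6.60 in bHR and from 5.30 to 6.23 in bLR, with Ttr between 5.34 and 11.06 on single arrays. All 7 choroid plexus markers measured, of 10 listed, had a higher mean in bHR, with a median difference of 0.16, a difference of 1.91 for Ttr and one of 0.54 for Enpp2, and 0 of 7 passed at an adjusted p under 0.05 in limma. The 5′ signal of control probe sets also differed between arrays. The 5′ minus 3′ log2 value of the beta-actin control probe sets falls as 5′ signal is lost. It was lowest on bLR replicate 3 (-3.65), then bLR replicate 2 (-2.89) and bHR replicate 6 (-2.30), while the remaining 7 arrays lay between -1.95 and -1.36. The same 3 arrays also had the lowest 5′ minus 3′ value of the dap control, a bacterial transcript and not a rat RNA. It was -1.82 on bLR replicate 3, -1.54 on bLR replicate 2 and -1.36 on bHR replicate 6. The cause of the low 5′ signal was not tested. The line difference without these 3 arrays is given for genes described in full where it moved by more than 1.5 times. Because these are bulk samples, fewer cells of a type and less RNA per cell cannot be told apart in any value below.

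No guidance gene differed between the lines past the threshold. With limma's moderated test, adjusted by Benjamini-Hochberg over all genes, 0 of the 42 had an adjusted p under 0.05, against 0% of all genes, and the smallest adjusted p was 0.992. At an unadjusted p under 0.05 the count was also 0 of 42, against 2.94% of all genes (1.1% higher and 1.84% lower in bHR). This count rested on single arrays: without bHR replicate 6 it was 6 of 42 (Sema6d, Sema3c, Sema5a, Nrp1, Epha4 and Epha3), against 6.06% of all genes, and without bLR replicate 1 it was 3 of 42 (Sema6d, Sema3a and Epha3), against 4.68%. The smallest adjusted p of a guidance gene was 0.732 without bHR replicate 6 and 0.901 without bLR replicate 1. No gene had lines that did not overlap, against 0.291% of all genes. The precision sets what this says: the 95% confidence interval of the difference lay within a 1.5-fold change in either direction (0.58 on the log2 scale) for all 42 genes, as it did for 98.4% of all genes.

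The fitted differences, bHR minus bLR in log2 units, ran from -0.25 for Sema5a to 0.20 for Unc5a, with a median of 0.025 over the 42 genes and 0.00078 over all genes. The mean was higher in bHR for 31 genes and lower for 11, where 50.4% of all genes were higher. Without Unc50 and Unc5cl the counts were 29 and 11, and the median was 0.024. The median over the 42 genes was 0.012 after adjustment for the beta-actin 5′ minus 3′ value, 0.015 without bLR replicate 6 (27 higher and 15 lower) and 0.040 without bHR replicate 6. The sign of the difference turned under at least 1 alternative setting for 19 of the 42 genes, 17 of them among the 24 with small differences that are given below by their range. The balance moved with array signal, which depends on the probes as well as on the RNA: all 12 guidance genes among the 25% of genes with the lowest mean were higher in bHR, where 58.7% of all genes in that class were higher. Among the 25% with the highest mean 3 of 8 were higher, against 40.8% of all genes there. A difference of at least 0.1 in either direction was seen for 12 of the 42 (28.6%) and for 15.9% of all genes. Of those 12 guidance genes 8 were lower in bHR, and of the 1581 such genes among all genes 920 were lower. The median size of the difference was 0.041 for the guidance genes and 0.041 for all genes. Among the 25% of genes with the highest mean it was 0.16 for the 8 guidance genes and 0.065 for all genes. The median SD within a line was also wider there, at 0.17 and 0.14. Those 8 include Sema5a, Sema3c, Sema6d, Nrp1 and Epha4, which were all low on bHR replicates 4 and 5 and so are not independent values. Over all levels of signal the median SD within a line was 0.11 for the guidance genes and 0.096 for all genes.

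**Figure D1:**
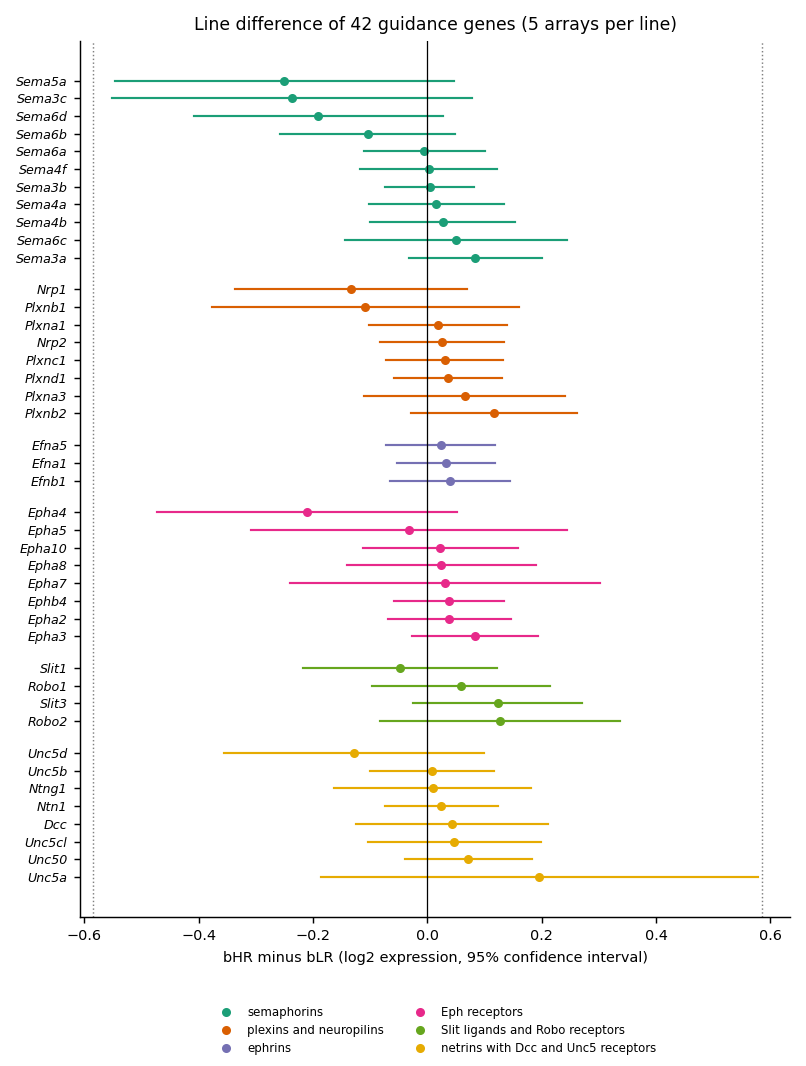
Fitted difference of each of the 42 guidance genes, bHR minus bLR in log2 expression on the x axis, with its 95% confidence interval as a bar, grouped by role on the y axis and based on 5 arrays per line. Points run from -0.25 for Sema5a to 0.20 for Unc5a and no interval reaches beyond a 1.5-fold change.

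Semaphorins held the 2 largest differences toward lower values in bHR, those of Sema5a and Sema3c. Of the 11 measured, 6 had a higher and 5 a lower mean in bHR, with a median difference of 0.0021. The 3 with the smallest p were Sema6d, Sema5a and Sema3c, and all 3 were lower in bHR by their means.

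Sema5a, a transmembrane semaphorin that in mouse limits the formation of excitatory synapses on granule cells of the dentate gyrus, had log2 values of 7.14, 6.94, 6.49, 6.60 and 7.11 on bHR replicates 2 to 6 and 6.94, 7.17, 7.40, 6.96 and 7.04 on bLR replicates 1, 2, 3, 4 and 6. In bHR, replicates 4 and 5 were lowest, bHR replicate 3 lay at the lower edge of the bLR values, and the other bHR arrays lay among them. The means were 6.85 ± 0.29 and 7.10 ± 0.19 (SD, n = 5 per line), a difference of -0.25 (SE 0.13), which became -0.16 once bHR replicate 4 was dropped and -0.15 after adjustment for beta-actin, that is, with its 5′ minus 3′ value as a term in the fit.

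Sema3c, a secreted class 3 semaphorin that is bound by neuropilins, had values of 6.55, 6.78, 6.40, 6.17 and 6.93 in bHR and 6.90, 6.86, 7.08, 6.61 and 6.56 in bLR, in the same order of arrays as for Sema5a and for each gene below. The lowest values were again those of bHR replicates 5 and 4, and bHR replicate 6 lay above 4 of the 5 bLR arrays. The difference was -0.24 (SE 0.14), and it moved to -0.14 when bHR replicate 5 was left out and to -0.33 when bHR replicate 6 was left out.

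Sema6d, a transmembrane semaphorin that binds plexin A1, had values of 7.10, 6.94, 6.87, 6.78 and 7.31 in bHR and 6.96, 7.22, 7.34, 7.19 and 7.24 in bLR. The same pair, bHR replicates 4 and 5, was lowest, and bHR replicate 6 was exceeded only by bLR replicate 3. The difference was -0.19 (SE 0.099), with an unadjusted limma p of 0.0798, the smallest among the 42 genes, and an adjusted p of 0.992. It was -0.21 without the 3 arrays of low 5′ signal.

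The stretches of 250 bases before the starts of Sema3c and Sema6d, and of Nrp1 described below, are shown because these genes were low on the same pair of arrays. Sema5a and Epha4 were low there too but had no promoter window available. The 3 stretches are RefSeq sequences of the GRCr8 build, read 5′ to 3′ along the gene's own strand. Sema3c lies on the minus strand (chr4:18699628-18699877), Sema6d on the plus strand (chr3:132337106-132337355) and Nrp1 on the plus strand (chr19:73256307-73256556). Capitals mark matches on either strand to 4 motifs: the GC box (GGGCGG), the E-box (CACGTG), the CCAAT box (CCAAT) and the TATA box (TATAAA).
Sema3c: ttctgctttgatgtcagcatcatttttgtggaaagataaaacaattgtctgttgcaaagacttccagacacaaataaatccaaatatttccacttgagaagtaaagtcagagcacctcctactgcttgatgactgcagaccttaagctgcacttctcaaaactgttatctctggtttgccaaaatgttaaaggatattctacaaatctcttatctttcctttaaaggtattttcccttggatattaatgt
Sema6d: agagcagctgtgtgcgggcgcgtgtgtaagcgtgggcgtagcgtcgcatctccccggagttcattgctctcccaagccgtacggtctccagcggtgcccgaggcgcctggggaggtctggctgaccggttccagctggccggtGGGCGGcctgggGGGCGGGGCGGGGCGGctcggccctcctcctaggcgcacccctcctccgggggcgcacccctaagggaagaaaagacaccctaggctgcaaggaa
Nrp1: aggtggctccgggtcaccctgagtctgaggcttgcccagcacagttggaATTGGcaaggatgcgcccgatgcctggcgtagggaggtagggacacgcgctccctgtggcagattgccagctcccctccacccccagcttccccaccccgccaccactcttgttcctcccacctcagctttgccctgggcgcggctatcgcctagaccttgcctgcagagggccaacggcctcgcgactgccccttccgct
The 3 windows differed in make-up. That of Sema3c had 35.2% G and C and held none of the 4 motifs, that of Sema6d had 70.4% G and C and 4 GC boxes, and that of Nrp1 had 66.4% G and C and 1 CCAAT box, read as ATTGG. The median over all 33469 promoter windows was 51.2% G and C. A GC box stood in 54.7% of the windows of 8780 measured genes and in 30.5% of all windows, and in 19 of the 35 guidance genes with a window (54.3%). The CCAAT box stood in 34.9% of measured genes' windows and 34.0% of all windows and in 11 of the 35 (31.4%), and the E-box in 7.73% and 5.59% and in 2 of the 35. The TATA box stood in 8.17% and 12.9% and in 0 of the 35. A match is a description of the letters only.

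The 8 other semaphorins differed by -0.10 to 0.084, with 6 higher and 2 lower in bHR. Sema3a, the secreted repellent for which the class is best known, had the highest of these differences at 0.084, on values between 4.54 and 4.82 on single arrays. Sema6b was the lowest at -0.10, and it was 0.015 without the 3 arrays of low 5′ signal. Sema6c, Sema4b, Sema4a, Sema3b, Sema4f and Sema6a lay between -0.0052 and 0.050.

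Among the plexins and neuropilins 6 had a higher and 2 a lower mean in bHR, with a median difference of 0.028. The 2 lower ones, Nrp1 and Plxnb1, and the highest, Plxnb2, had the smallest p of the group.

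Nrp1, the co-receptor that binds secreted semaphorins and also a form of vascular endothelial growth factor, had values of 6.88, 6.95, 6.65, 6.54 and 7.06 in bHR and 6.94, 6.98, 6.97, 6.82 and 7.04 in bLR. Replicates 4 and 5 of bHR were below every bLR array, replicate 6 of bHR was above every bLR array, and the bLR arrays lay close together. The difference was -0.13 (SE 0.092), or -0.064 without bHR replicate 5.

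Plxnb1 and Plxnb2 encode plexins of the B class, receptors for class 4 semaphorins. Plxnb1 had values of 6.27, 6.69, 6.36, 6.45 and 6.69 in bHR and 6.39, 7.01, 6.64, 6.43 and 6.53 in bLR, with bLR replicate 2 the highest and bHR replicate 2 the lowest array. Its difference of -0.11 (SE 0.12) became -0.0057 without bLR replicate 2, -0.0090 without the 3 arrays of low 5′ signal and -0.021 after adjustment for beta-actin. Plxnb2 had values of 6.75, 6.71, 6.84, 6.82 and 6.65 in bHR and 6.73, 6.62, 6.41, 6.71 and 6.72 in bLR, and bLR replicate 3 lay below all other arrays. Its difference of 0.12 (SE 0.066) became 0.059 without that array, 0.060 without the 3 arrays of low 5′ signal and 0.057 after adjustment for beta-actin.

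The 5 other genes of this group were all a little higher in bHR by their means, by 0.018 to 0.065. Plxna3, which with the neuropilins forms receptors for class 3 semaphorins, differed by 0.065 and Plxna1 by 0.018. Plxnd1, known for its role in vessels, Plxnc1, the receptor for Sema7a, and Nrp2, the neuropilin used by Sema3f in hippocampal mossy fibre pruning in mouse, differed by 0.036, 0.030 and 0.025.

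All 3 measured ephrins, Efna1, Efna5 and Efnb1, lay among the 25% of genes with the lowest mean signal, and all 3 had slightly higher means in bHR, by 0.023 to 0.040. Efnb1, a transmembrane ephrin, had values of 4.91, 4.81, 4.76, 4.79 and 4.71 in bHR and 4.86, 4.75, 4.69, 4.76 and 4.73 in bLR. The highest array was bHR replicate 2, and the lines overlapped over most of their range. Its difference of 0.040 (SE 0.048) was 0.012 without bHR replicate 2. Efna1, which is anchored to the membrane by a lipid and binds Epha2, had values from 4.81 to 4.90 in bHR and from 4.75 to 4.87 in bLR, a difference of 0.032 (SE 0.039) that was 0.016 without bHR replicate 2 and 0.010 without the 3 arrays of low 5′ signal. Efna5, which with Eph receptors of the A class sets up topographic maps, ran from 4.65 to 4.76 in bHR and from 4.57 to 4.76 in bLR. Its difference of 0.023 (SE 0.044) turned to -0.0070 when bLR replicate 6 was left out and was 0.071 without the 3 arrays of low 5′ signal.

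Of the 8 Eph receptors, which are receptor tyrosine kinases, 6 had a higher and 2 a lower mean in bHR, with a median difference of 0.028. Epha4 stood apart from the others by the size of its difference. It is a receptor on dendritic spines of the hippocampus that in mouse is engaged by an ephrin on neighbouring astrocytes.

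Epha4 had values of 9.66, 9.60, 9.35, 9.08 and 9.78 in bHR and 9.61, 9.87, 9.78, 9.68 and 9.59 in bLR. The 2 lowest arrays were bHR replicates 5 and 4, as for the 3 semaphorins and Nrp1, while the other bHR arrays lay within the range of bLR. The means were 9.49 ± 0.28 and 9.70 ± 0.12 (SD, n = 5 per line), a difference of -0.21 (SE 0.12) that became -0.28 when bHR replicate 6 was dropped and -0.11 when bHR replicate 5 was dropped. On the 2 arrays that failed quality control, which enter none of these differences, Epha4 read 7.12 (bHR replicate 1) and 8.40 (bLR replicate 5).

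Epha3, a receptor for ephrins of the A class, had values of 4.66, 4.71, 4.65, 4.74 and 4.55 in bHR and 4.71, 4.56, 4.50, 4.53 and 4.60 in bLR, and 4 of the 5 bHR arrays lay above 4 of the 5 bLR arrays. Its difference was 0.084 (SE 0.050), and its mean lay among the lowest 25% of genes. Ephb4, best known as the Eph receptor of veins, differed by 0.038 (SE 0.044), or by 0.069 without bHR replicate 6 and 0.087 without the 3 arrays of low 5′ signal. The 5 other Eph receptors differed by -0.032 to 0.038. These were Epha5, the only other one with a lower mean in bHR, and Epha2, Epha7, Epha8 and Epha10, the last of which lacks kinase activity. Epha7 differed by 0.031, and by -0.11 without the 3 arrays of low 5′ signal.

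Of the 4 Slit and Robo genes 3 had a higher and 1 a lower mean in bHR, with a median difference of 0.091. Slit3, a secreted ligand of the Robo receptors, had values of 6.05, 5.82, 5.70, 6.04 and 5.86 in bHR and 5.75, 5.69, 5.82, 5.84 and 5.76 in bLR. The bLR arrays lay close together, bHR replicates 2, 5 and 6 lay above them, and bHR replicate 4 lay near their lower end. Its difference was 0.12 (SE 0.067), and it was 0.12 both after adjustment for beta-actin and without the 3 arrays of low 5′ signal.

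Robo2, a receptor for Slits, had values of 5.15, 4.95, 5.06, 5.14 and 4.99 in bHR and 5.09, 4.71, 4.68, 5.00 and 5.17 in bLR. The spread lay in bLR, where replicates 2 and 3 were lowest and replicate 6 was above every bHR array. Its difference of 0.13 (SE 0.096) was 0.064 without bLR replicate 3 and -0.014 without the 3 arrays of low 5′ signal, so its direction rested on those arrays. Robo1, its close relative, differed by 0.059 (SE 0.071), or by 0.013 without bLR replicate 3, 0.11 without bHR replicate 6 and 0.0055 after adjustment for beta-actin. Slit1 was the 1 gene of the 4 with a lower mean in bHR, at -0.048, and it was -0.0055 without bHR replicate 6 and 0.0056 with all 12 arrays.

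In the netrin group 7 of 8 had a higher mean in bHR, with a median difference of 0.034, or 5 of 6 without Unc50 and Unc5cl. Unc5a, a netrin receptor that mediates repulsion, had the highest difference and the widest spread of all 42 genes.

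Unc5a had values of 5.39, 5.18, 5.79, 5.69 and 5.01 in bHR and 5.48, 4.91, 4.84, 5.44 and 5.42 in bLR. The highest arrays were bHR replicates 4 and 5, those lowest for the semaphorins named above, and the lowest were bLR replicates 3 and 2 and bHR replicate 6. The difference was 0.20 (SE 0.17) against an SD within a line of 0.32. It became 0.10 when bLR replicate 3 was dropped, 0.30 when bHR replicate 6 was dropped, 0.066 without the 3 arrays of low 5′ signal and 0.033 after adjustment for beta-actin.

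Unc5d, a netrin receptor that also binds the adhesion protein Flrt2, had values of 6.22, 6.02, 6.08, 6.13 and 6.32 in bHR and 6.01, 6.31, 6.63, 6.12 and 6.35 in bLR, with bLR replicate 3 above all other arrays. Its difference of -0.13 (SE 0.10) became -0.043 without that array, -0.047 without the 3 arrays of low 5′ signal and -0.043 after adjustment for beta-actin. Unc50 differed by 0.072 (SE 0.051), or by 0.038 without bLR replicate 2 and 0.030 without the 3 arrays of low 5′ signal. The 5 other genes, Ntn1, Ntng1, Dcc, Unc5b and Unc5cl, were higher in bHR by 0.0082 to 0.047. Dcc, the receptor through which netrin attracts, differed by 0.043 and Ntn1, its ligand, by 0.024. Ntng1, a membrane-anchored netrin that binds Lrrc4c and not Dcc, differed by 0.0092.

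**Figure D2:**
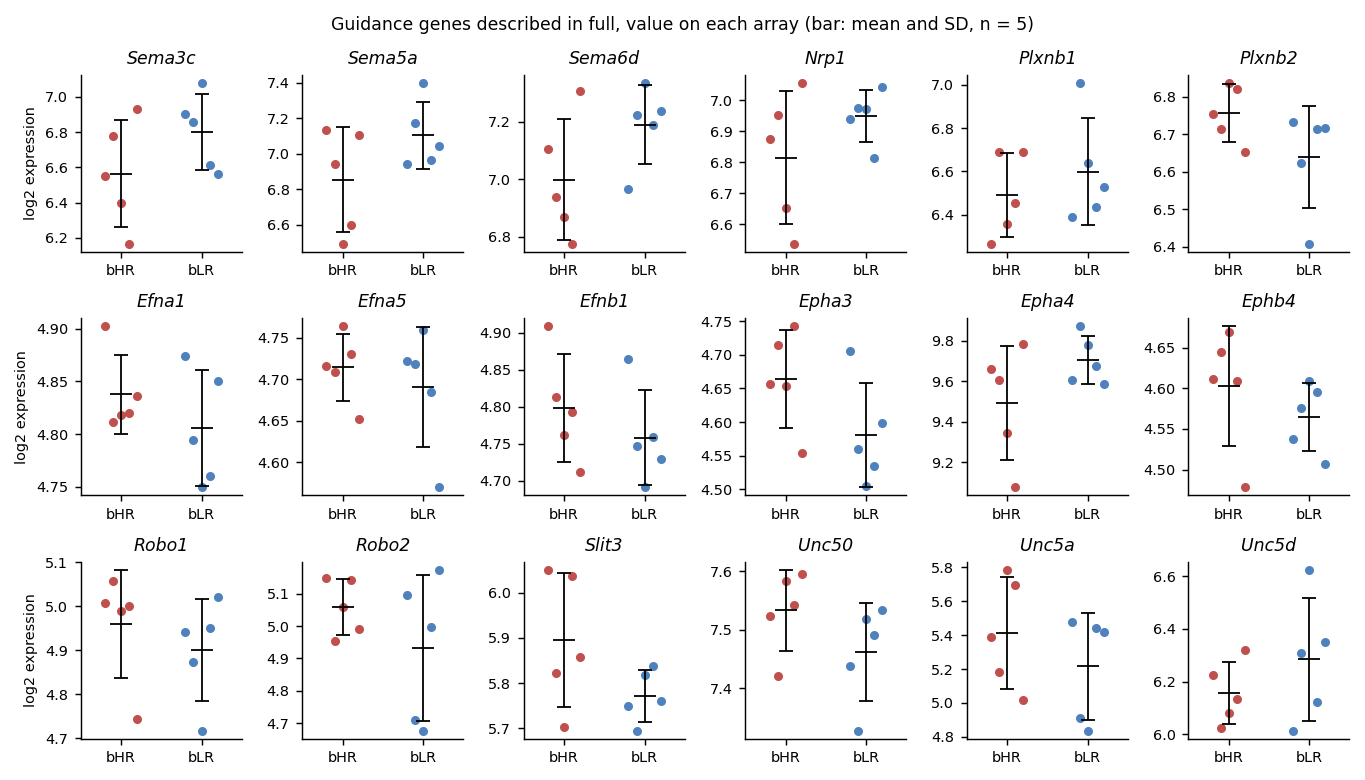
Log2 expression on the y axis of each guidance gene described in full, by line on the x axis, with 1 point per array and the mean and SD of 5 arrays as a bar. The bHR and bLR points overlap in every panel. The low bHR points of Sema5a, Sema3c, Sema6d, Nrp1 and Epha4 are replicates 4 and 5.

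For some of the genes described in full, the way the arrays ordered them was shared across roles. Sema5a, Sema3c, Sema6d, Nrp1 and Epha4 were all low on bHR replicates 4 and 5, and Unc5a was high there. As a description over the deviations of the 10 arrays from their line means, Pearson's r was 0.82 between Sema3c and Epha4, 0.83 between Nrp1 and Epha4, 0.81 between Sema6d and Sema5a, 0.88 between Plxnb2 and Unc5a and -0.87 between Sema5a and Unc5a. All these values come from the same arrays and share their RNA. Over the 861 pairs of guidance genes 6.04% had an r above 0.7, against 4.04% of all pairs of genes, and 4.88% had an r below -0.7, against 3.37%. Unc5a had the most such partners, 7 above 0.7 and 7 below -0.7. Single arrays differed in how often they held the lowest or highest value of a gene over the 10 arrays of both lines. Replicate 3 of bLR held 19% of these extremes for the guidance genes and 16.1% for all genes. Replicate 6 of bHR held 15.5% and 12.1%.

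**Figure D3:**
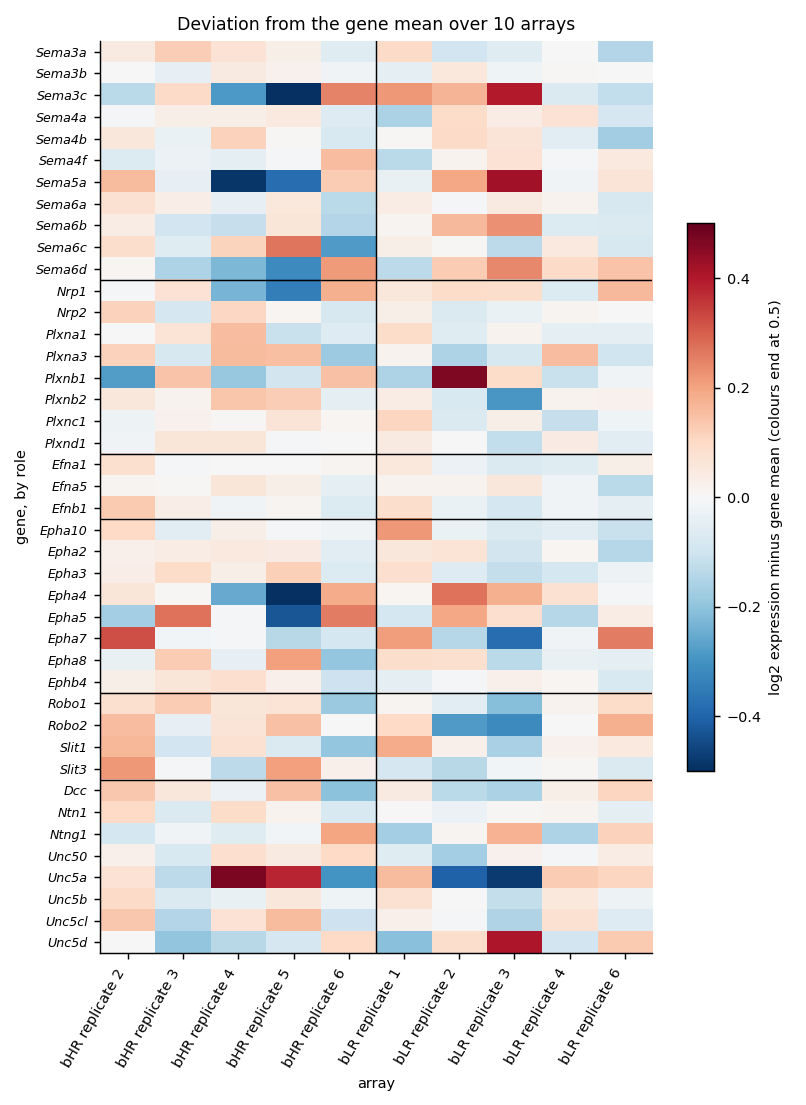
Deviation of each of the 42 guidance genes, on the y axis in role order, from its own mean over the 10 arrays on the x axis, in log2 units with colours ending at 0.5 in either direction. The bHR replicates 4 and 5 are low for Sema5a, Sema3c, Sema6d, Nrp1 and Epha4 and high for Unc5a.

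The bLR line held 2 of the 3 arrays with the lowest beta-actin 5′ minus 3′ value. Each gene was therefore also fitted against that value, with line as a term, a test added after the data had been seen. Of the 42 genes 5 (11.9%) had a slope with an adjusted p under 0.05 in limma, against 13.3% of all genes (5.28% with a positive and 7.98% with a negative slope). Robo2 had a slope of 0.20 log2 units per unit of the actin value (SE 0.036, adjusted p = 0.00398), Unc5a one of 0.37 (SE 0.067, adjusted p = 0.00464) and Plxnb2 one of 0.14 (SE 0.029, adjusted p = 0.00923). Epha7, named here after its value was seen, had a slope of 0.23 (SE 0.059, adjusted p = 0.0229). These 4 genes were lower where the 5′ signal was weaker. Unc5d ran the other way with a slope of -0.19 (SE 0.051, adjusted p = 0.0308). Sema5a and Sema3c, with slopes of -0.22 and -0.22, did not pass (adjusted p = 0.0767 and 0.111). Without the 3 arrays of low 5′ signal 0 of 42 genes and 0 of all genes passed. The slopes then were 0.24 for Robo2, 0.90 for Unc5a, 0.19 for Plxnb2, 0.20 for Epha7 and 0.015 for Unc5d. Without bLR replicate 3 alone 3 of the 42 passed, namely Robo2, Unc5a and Plxnb1, against 7.16% of all genes.

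**Figure D4:**
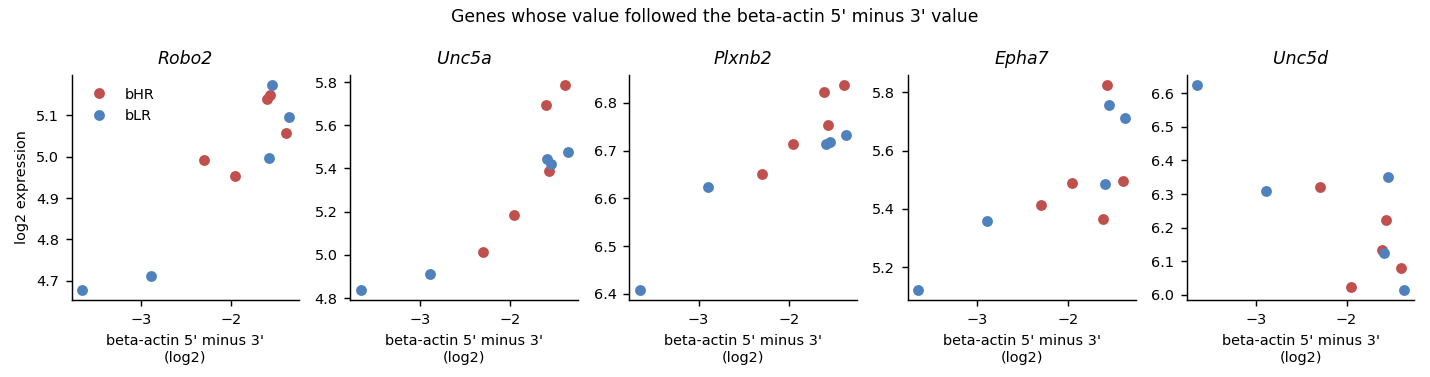
Log2 expression on the y axis against the beta-actin 5′ minus 3′ log2 value of the same array on the x axis, for the 5 guidance genes with an adjusted p under 0.05, 1 point per array and coloured by line. Robo2, Unc5a, Plxnb2 and Epha7 are lower on the arrays at the left, bLR replicates 3 and 2, than on the other bLR arrays, and Unc5d is highest on bLR replicate 3.

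Choroid plexus markers were higher in bHR by their means and varied widely between rats, so the same fit was made against the level of Ttr, the main secreted protein of that tissue. No guidance gene followed Ttr within a line at an adjusted p under 0.05, against 0.01% of all genes, which is Ttr itself. The other choroid plexus markers did not pass either, so this count cannot decide whether guidance genes followed that tissue. At an unadjusted limma p under 0.05 the counts were 5 of the 7 markers, Ttr included, 0 of the 42 guidance genes and 226 of all genes. With Ttr as a covariate of the line difference Sema5a was -0.16, Sema3c -0.17 and Nrp1 -0.084, while Sema6d was -0.18, Epha4 -0.18 and Unc5a 0.17. The part of 5′ signal loss and of choroid plexus tissue in these differences was not tested.

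Locomotor score was then related to expression within each line, with line as a term, to ask whether guidance genes followed behaviour among rats of the same line. No slope passed at an adjusted p under 0.05, against 0% of all genes, and none at an unadjusted p under 0.05, against 4.12% of all genes. The slope was positive for 21 guidance genes and negative for 21, where 41.3% of all genes had a positive slope. Semaphorins leaned to negative slopes, with Sema4f the 1 of 11 above 0. The smallest p belonged to Ephb4, at -0.052 log2 units per 100 beam breaks (SE 0.025), and to Efna5, at -0.044 (SE 0.026), and the adjusted p was 0.989 for both in limma. The lowest bLR score (319) and the highest bHR score (1328) fell on the arrays with the lowest beta-actin value of their line, which is opposite in direction. The bLR array with the next lowest beta-actin value, replicate 2, had a score of 495, inside the range of its line. The relation of score to 5′ signal within lines was not tested. With the beta-actin term 2 of the 42 and 769 of all genes had an unadjusted limma p under 0.05 for the slope. The part of 5′ signal in the slopes was not tested.

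To ask whether ligands and their receptors varied together among rats, 23 textbook pairs whose members were both measured were tested over the 10 arrays after each line's mean was taken out. Pairs were chosen after the data had been seen. In 12 of the 23 Pearson's r was positive. In exact two-sided permutation tests over the 14400 within-line orders 2 pairs had an unadjusted p under 0.05 and 0 passed after Benjamini-Hochberg adjustment, where the smallest adjusted p was 0.449 for Pearson's r and 0.647 for Spearman's rho.

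Sema3c and its binding partner Nrp1 had an r of 0.771 (exact permutation p = 0.0287) and a rho of 0.576 (exact permutation p = 0.135). The relation rested in part on 2 arrays: r was 0.459 without the 2 farthest from the median of Sema3c, and 0.733 without the 3 arrays of low 5′ signal. Slit1 and Robo2 had an r of 0.608 (exact permutation p = 0.0427) and a rho of 0.685 (exact permutation p = 0.0281). This relation, too, rested in part on single arrays: r was 0.349 without the 2 farthest arrays and 0.424 without the 3 arrays of low 5′ signal. Slit1 and Robo1 had an r of 0.652 (exact permutation p = 0.0586) and a rho of 0.454 (exact permutation p = 0.220). Without the 2 farthest arrays it was 0.473, and without the 3 arrays of low 5′ signal it was -0.456, so its sign rested on those arrays.

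**Figure D5:**
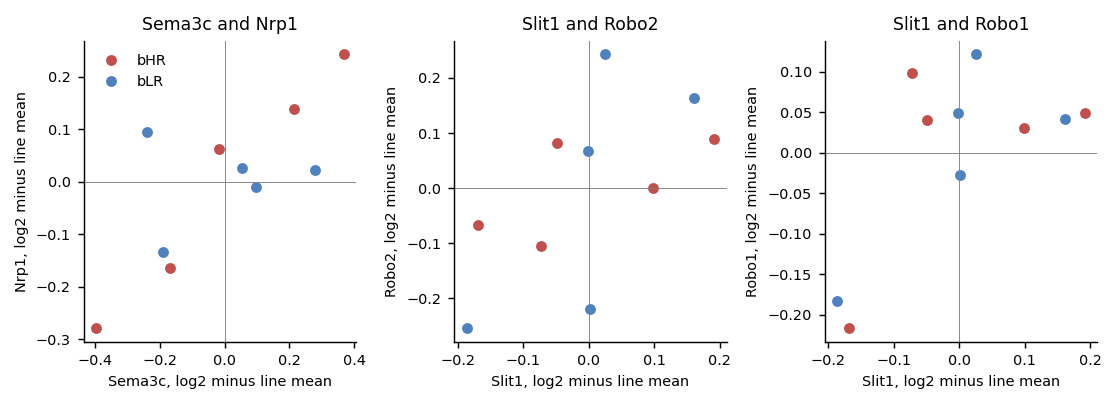
Deviation of a receptor from its line mean on the y axis against that of its ligand on the x axis, both in log2 units, 1 point per array and coloured by line, for the 3 pairs with the smallest permutation p. Pearson's r is 0.771 for Sema3c and Nrp1, 0.608 for Slit1 and Robo2, and 0.652 for Slit1 and Robo1, where 2 arrays lie far below the rest.

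The other parts of the pathway were read from 3 lists of genes. Among intracellular effectors of guidance receptors 40 of 53 were measured, 19 higher and 21 lower in bHR, with a median difference of -0.0035, and 0 passed at an adjusted p under 0.05. The smallest p belonged to Chn2, a Rac-inactivating protein that acts downstream of Nrp2 in mouse mossy fibre pruning. Chn2 had values of 5.06, 5.01, 5.07, 5.02 and 4.85 in bHR and 4.95, 4.66, 4.74, 4.94 and 4.96 in bLR. Replicates 2 and 3 of bLR were lowest and the lines overlapped. Its difference was 0.15 (SE 0.070), or 0.090 without the 3 arrays of low 5′ signal, and its own slope on the beta-actin value was 0.14 (adjusted p = 0.0183 in limma). Dpysl3, a collapsin response mediator that binds the cytoskeleton, was next at 0.13 (SE 0.059).

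Among co-receptors and adhesion partners 20 of 26 were measured, 15 higher and 5 lower in bHR, with a median of 0.037 and 0 past the threshold. Dscam, an adhesion protein that also binds netrin, differed by 0.085 (SE 0.043), and Gpc1, a glypican that binds Slits, by -0.26 (SE 0.13). Among other guidance and growth-inhibiting genes 22 of 29 were measured, 9 higher and 13 lower, with a median of -0.013 and 0 past the threshold, and 2 of the 22, Reln and Ryk, had an unadjusted p under 0.05 (2.94% of all genes).

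Reln, the secreted protein of Cajal-Retzius cells and interneurons that positions neurons, had the smallest p of this last list. Its values were 7.0, 7.01, 7.17, 7.03 and 7.20 in bHR and 6.68, 7.0, 6.81, 6.89 and 7.07 in bLR. Every bHR array lay above 4 of the 5 bLR arrays, replicate 2 of bLR by less than the rounding shown, and the lines overlapped through bLR replicate 6. The difference was 0.19 (SE 0.075) with an adjusted p of 0.992 in limma. Ryk, a receptor for Wnt ligands that guide axons, differed by 0.12 (SE 0.049). Rtn4r, the Nogo receptor, was the 1 gene of the 3 lists whose lines did not overlap, 1 of the 22 measured in its own list, against 0.291% of all genes. It is named after its values were seen. It had values of 5.13, 5.18, 5.18, 5.08 and 5.16 in bHR and 5.18, 5.27, 5.21, 5.21 and 5.21 in bLR. The lowest bLR array and the highest bHR arrays differed by less than the rounding shown. Its difference was small at -0.075 (SE 0.036), and its adjusted p was 0.992.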

How the data were processed

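Total RNA from the whole hippocampus of 12 rats was profiled on Affymetrix RAE230A arrays. The authors deposited log2 expression values made by Robust Multi-array Average with affy 1.54.0 and a custom probe definition, version 19.0.0, which maps probes to Entrez genes, per the labels and the submitters' processing notes. RMA sets all arrays to 1 distribution, and genes were set against each other only by classes of array signal, which depends on the probes. The table held 10019 rows. The 57 control rows were left out of the tests, and 9831 of the 9962 genes were named through RefSeq's GRCr8 table, with 114 left unnamed. The authors' quality control failed bHR replicate 1 and bLR replicate 5, so 10 arrays entered the comparisons. All hippocampal arrays were run in 1 batch, per the labels' protocols, and p-values measure the spread between these rats.

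Lines were compared with limma 3.58.1 in R 4.3.3 (lmFit, eBayes), with p-values adjusted by Benjamini-Hochberg over 9962 genes at 0.05. The same fit took the locomotor score, the beta-actin 5′ minus 3′ value or Ttr, each with line as a term. Permutation tests used scipy 1.17.1 in Python 3.11.15. The fit was tested on simulated data. Genes described in full were the 3 with the smallest p in each role, the 3 with the widest SD, the 2 with the smallest slope p, and the 2 with the smallest p in each other list. The guidance genes and all lists were chosen with earlier results of these data known. Alternatives were the full set of 12 arrays (plain, and weighted by array), leave-one-out fits, a filter on low values, renormalization, centring, another prior, covariates for 5′ signal and choroid plexus, 3 arrays left out, and a block on title numbers. The array number limits the precision.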

Additional observations from a re-analysis of the deposited data

Results flagged for a closer look

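Of 84 groups of 5 arrays, 1 for each guidance gene and line, 7 held a value far from the other 4. Chance alone flags about 1 group in 20. The groups share the same arrays and are not independent, and the share over all genes was not counted, so the 7 flags describe single values only. On bHR replicate 6, Epha2 had a log2 value of 4.6974 where the other bHR arrays ran from 4.7818 to 4.8056, and Robo1 had 4.7437 where they ran from 4.9898 to 5.0577. On the same array Ntng1 was high at 5.2886, against 5.0036 to 5.0786, and Sema4f was high at 6.3853, against 6.1612 to 6.2247. On bHR replicate 2, Epha7 was high at 5.8257, against 5.3648 to 5.4962, and Efna1 at 4.9024, against 4.8118 to 4.836. On bLR replicate 1, Epha10 was high at 5.3357, against 5.0057 to 5.0855. Replicate 6 of bHR, with 4 of the 7 values, also had the lowest beta-actin 5′ minus 3′ value of its line, -2.30. The part of 5′ signal loss in these values was not tested.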

How the results depend on the processing

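Under the alternatives run, 0 guidance genes passed at an adjusted p under 0.05 for the line difference or the locomotor slope. Of 492 values of the 25 genes described in full, 490 kept their direction. The exceptions were Efna5 at -0.0070 without bLR replicate 6 (0.040 at the other end of the leave-one-out range) and Robo2 at -0.014 without the 3 arrays of lowest dap value. Most of the 25 were picked for a small p of this same difference, which favours a stable sign. Among the 24 other guidance genes 17 turned sign under at least 1 alternative. The median difference of 0.025 became 0.059 with all 12 arrays, 0.012 with the beta-actin term, and 0.015 to 0.040 with 1 array left out; the cause was not tested. The count of 5 guidance genes that followed the beta-actin value was 0 with all 12 arrays and 3 with array weights, against 15 and 761 of all genes. It was 3 to 6 with 1 array left out, against 713 to 1302, and 7 with a trended and robust prior, against 1346. Without the 3 arrays of low dap it was 0, against 0 of all genes, and fewer arrays entered that fit. The labels do not say what the title numbers shared by both lines mean, so they were not taken as pairs. Arrays of the same number gave correlations of deviations of -0.33, 0.26 and 0.41, and arrays of unlike number gave -0.52 to 0.45. So few values cannot decide whether the numbers mark pairs. With the replicate block 0 genes passed for line, the median was 0.049, and 9 guidance genes and 1468 of all genes had an unadjusted p under 0.05. In that fit 0 guidance genes and 0 of all genes followed the beta-actin value. It rests only on the arrays with title numbers 9, 10 and 11, which occur in both lines. Arrays with a number of their own are fitted exactly, so few residual degrees of freedom are left. Low signal limits the 12 guidance genes in the lowest 25% of mean value.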
